A study of Sus scrofa with 14 samples.

Results

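Tissue factor (F3), thrombomodulin (THBD) and the endothelial protein C receptor (PROCR) are 3 membrane proteins that set the balance between clotting and its restraint. They were followed in pregnant uterus of 14 sows, with the endothelial adhesion molecule PECAM1 as a comparison gene. Each of the 3 genes was represented by every probe set that carried its symbol and no other in the platform annotation. This gave 3 genes of the 6765 with such a probe set, and 1 probe set for each of them of the 23999 that were tested. Their Entrez gene numbers are 396677 for F3, 100157642 for THBD and 654289 for PROCR. No filter on low values was applied, so all 3 were kept. The genes were chosen by their levels in high against low prolificacy, with F3 and the anticoagulant receptors set against PECAM1. PECAM1 had 2 probe sets.

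The high prolificacy group held 5 sows and the low prolificacy group 9. All were F2 animals of an Iberian by Meishan pig cross, slaughtered between day 30 and day 32 of gestation number 5, and no treatment was applied. Each sow gave 1 Affymetrix porcine array of total uterine RNA. The labels name each array a biological replicate, but give neither the litter sizes behind the 2 classes nor the layer of the uterine wall that was sampled. Levels are log2 values, and differences are high minus low prolificacy.

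Tissue factor is the cell surface receptor for clotting factor VII, and their complex starts the extrinsic pathway that ends in thrombin and fibrin. It is typically found on cells around vessels and on many epithelia, and in human pregnancy it is made by decidual stromal cells under progesterone. Thrombomodulin sits mainly on endothelium, binds thrombin and turns it from a clotting enzyme into an activator of protein C. The endothelial protein C receptor holds protein C beside that complex, and activated protein C with its cofactor protein S cuts the clotting cofactors V and VIII.

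The sampled tissue differed in make-up between the groups, and this touches every value below. All 12 smooth muscle markers on the array were called lower in high prolificacy by limma (median difference -3.18), where 5.42% of all genes were called lower and 5.34% higher, and the mean of the list ran from -3.46 to -0.02 in high and from 0.72 to 1.75 in low prolificacy arrays. Of 13 epithelium markers 7 were called higher and 0 lower (median 2.05, all 13 above 0), with list means from 0.68 to 1.70 in high and from -2.55 to 0.23 in low prolificacy. High 1 was nearest to the low arrays in smooth muscle markers, high 4 had the highest mean of the trophoblast and fetal membrane markers (3.35, against a highest value of 1.14 in low prolificacy), and low 7 and low 9 had the lowest epithelium means (-2.55 and -2.26). A list mean is the average of its genes' log2 levels after each was centred on its own mean over the 14 arrays. In whole tissue, fewer cells of a type and less RNA per cell cannot be told apart.

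F3 was the member with the higher level in high prolificacy. Its log2 levels were 10.43, 10.86, 11.76, 10.76 and 9.78 in high 1 to high 5, against a lowest of 6.75, a median of 8.78 and a highest of 10.58 in low prolificacy. Of the 5 high arrays, 3 lay above every low array, and the other 2, high 1 and high 5, lay below low 2 only. The mean F3 level was 10.72 on the 5 high arrays (SD 0.72), against 8.70 on the 9 low arrays (SD 1.20). They differed by 2.02 ± 0.54 (SE), or 4.06-fold.

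THBD ran the other way. Its levels were 5.93, 4.42, 5.19, 6.80 and 5.47 in high 1 to high 5, against a lowest of 6.17, a median of 6.68 and a highest of 7.12 in low prolificacy. The groups overlapped through high 4 alone, and the other 4 high arrays lay below all low arrays. Its mean was 5.56 on the high arrays (SD 0.88), against 6.72 on the low arrays (SD 0.30). The log2 difference was -1.16 ± 0.29 (SE), or 2.23-fold lower. In high 4 THBD was at 6.80, and without that array the difference was -1.47. High 4 also had the highest trophoblast mean and the highest monocyte and macrophage mean of all arrays (3.35 and 1.11). Its blood endothelium mean, 0.44, was the highest of the high group. The part of these markers in the THBD values was not tested.

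PROCR did not separate the groups in a single direction. Its levels were 8.05, 5.18, 4.72, 5.33 and 4.85 in high 1 to high 5, against a lowest of 5.22, a median of 5.95 and a highest of 6.32 in low prolificacy. High 1 lay above all low arrays, 3 high arrays lay below all of them, and high 4 was inside their range. Means were 5.63 on the high arrays (SD 1.38) and 5.84 on the low arrays (SD 0.36), and the log2 difference was -0.22 ± 0.43 (SE). Without high 1 the high prolificacy mean was 5.02 ± 0.28 (SD, n = 4) and the difference -0.82. PROCR was below the median of its own array on 8 of 14 arrays and THBD on 3, and no detection calls were used, so low values of both may be near background.

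These differences belong to the contrast from which the 3 genes were picked out, so they describe the genes and are given without a test. As a description only, 2 of the 3 lie among the probe sets that the fit over the whole array calls (limma adjusted p under 0.05), F3 among the 3.50% called higher and THBD among the 4.35% called lower, 7.85% in both directions together. PROCR was in neither set, and the choice of the genes leaves nothing to read from this count. In none of the 3 were the groups free of overlap, which held for 2.64% of all probe sets.

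**Figure D1:**
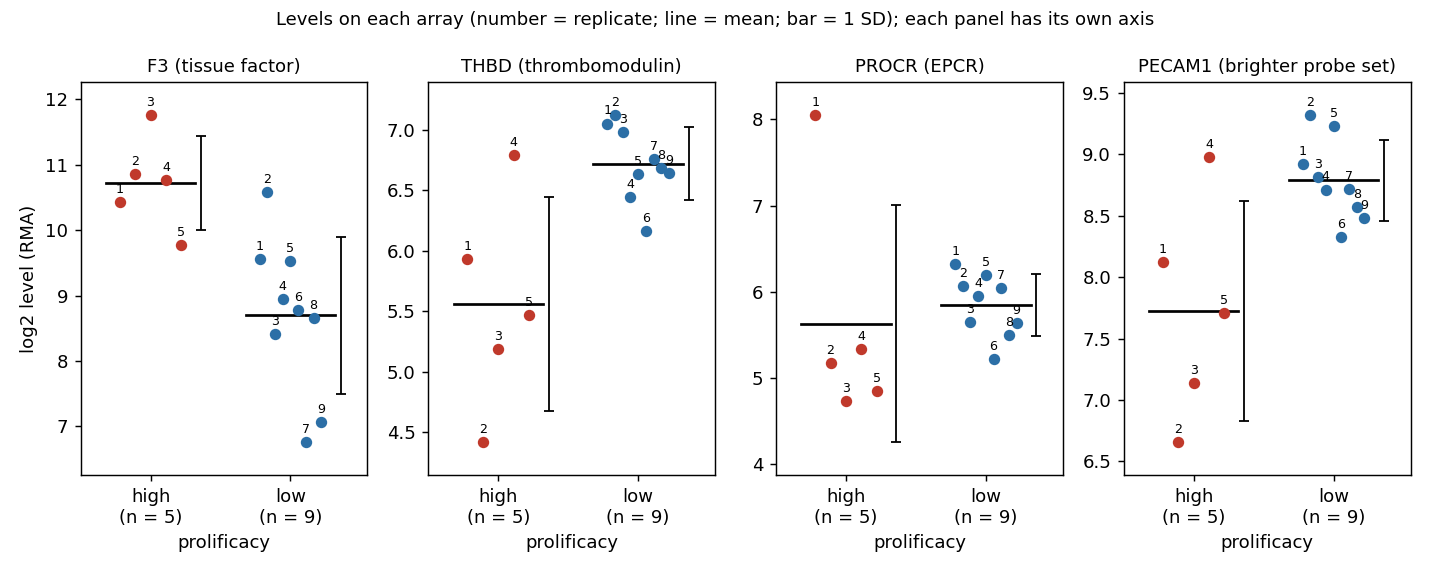
Log2 levels of F3, THBD, PROCR and the brighter PECAM1 probe set on each array, with high prolificacy on the left and low prolificacy on the right of each panel; numbers are replicate numbers, lines are means and bars are 1 SD. F3 reaches 11.76 in high 3, THBD and PECAM1 have the same high arrays at the bottom and top, and PROCR in high 1 stands alone at 8.05.

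The 3 genes also differed in how much they varied inside a group, a spread that also enters the SE of the differences above. Among low prolificacy arrays F3 was among the most variable transcripts of the array, since 98.4% of probe sets had a smaller SD. THBD and PROCR varied like a typical probe set there, with 47.4% and 58.3% below them. Among high prolificacy arrays the order was PROCR, for which 98.2% of probe sets had a smaller SD, then THBD with 90.6% and F3 with 84.5%. The PROCR spread in high prolificacy came mostly from high 1, as its SD of 1.38 against 0.28 without that array shows.

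PECAM1, a junction protein of endothelium that also occurs on platelets and leukocytes, followed THBD closely. Its brighter probe set was at 8.12, 6.65, 7.14, 8.98 and 7.71 in high 1 to high 5, against a lowest of 8.33, a median of 8.72 and a highest of 9.32 in low prolificacy. The 5 high arrays stood in the same order for THBD and for this PECAM1 probe set, from high 2 at the bottom through high 3, high 5 and high 1 to high 4 at the top. The difference of the brighter probe set was -1.07 ± 0.30 (SE) and that of the dimmer -1.06 ± 0.27 (SE), close to the -1.16 of THBD.

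When THBD was taken relative to PECAM1 on the same array, the groups almost coincided. The log2 ratio of THBD to PECAM1, set to a mean of 0 in low prolificacy, averaged -0.09 on the high arrays, with an SD of 0.12, against an SD of 0.26 around 0 on the low arrays. It ran from -0.17 to 0.12 in high and from -0.53 to 0.23 in low prolificacy arrays. With the PECAM1 level as a covariate in limma the THBD difference was -0.20 ± 0.18 (SE), against -1.16 without it. A ratio of 2 transcripts shows only that they moved by like amounts.

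Relative to the rest of the blood endothelium list, THBD remained lower. The list held 17 genes on the array, of which KDR, a receptor for vascular growth factor, was called higher and PECAM1 lower, and 14 of the 17 had a negative difference. The median difference of the list was -0.31, beside 0.07 over all 6765 genes, and 11.8% of the list was called beside 10.8% of all genes. PECAM1 entered the choice of the genes, so its call is a description and not a test. Among the other 16 genes KDR was the only call. The list mean ran from -0.86 to 0.44 in high and from -0.40 to 0.73 in low prolificacy, so the groups overlapped widely. The log2 ratio of THBD to the mean of the 16 endothelial genes other than PECAM1 averaged -0.95 on the high arrays, with an SD of 0.45, against an SD of 0.28 around 0 on the low arrays, with 4 of 5 high arrays below every low array. PECAM1 shared this. With that mean as a covariate in limma its brighter and dimmer probe sets differed by -0.81 and -0.84, beside -0.94 for THBD. The junction proteins CDH5 and CLDN5 had differences of -0.82 and -0.82, and the endothelial transcription factor ERG one of -0.83, none of them called (limma adjusted p = 0.18, 0.074 and 0.092). Of 3 lymphatic endothelium markers 2 were called lower, LYVE1 at -2.47 and CCL21 at -2.68, and thrombomodulin is also known from lymphatic vessels. The part of lymphatic markers in the THBD difference was not tested.

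F3 and the epithelium mean were both higher in high prolificacy. Inside the high group they did not share an order. High 5 had the lowest F3 level there, 9.78, with an epithelium mean of 1.60, above those of high 1 and high 4 (0.68 and 0.70). Relative to the mean of the epithelium list, F3 averaged 0.10 on the high arrays, with an SD of 0.79. The low arrays had an SD of 0.66 around 0. The values ran from -1.21 to 0.68 in high and from -1.03 to 1.46 in low prolificacy. Relative to PECAM1, F3 averaged 3.09 on the high arrays, with an SD of 1.31, against an SD of 1.02 around 0 on the low arrays. Relative to THBD, the lowest high array was at 1.99 and the highest low array at 1.48, so the groups did not overlap in this ratio, which the choice of both genes fixes in part. The lowest F3 levels of all arrays, 6.75 and 7.06, were those of low 7 and low 9, which also had the lowest epithelium means. Without these 2 arrays the F3 difference between the groups was 1.51 ± 0.39 (SE). With the epithelium mean as a covariate it was 0.27 ± 0.56 (SE), a fit in which limma called 2 probe sets in all. That mean did not overlap between the groups, so the fit cannot tell epithelium from prolificacy. Monocytes are another known source of tissue factor. Of 7 monocyte and macrophage markers 0 were called (limma, 0 at an unadjusted p under 0.05), with list means from -0.65 to 1.11 in high and from -0.97 to 0.58 in low prolificacy. Of 8 stromal fibroblast markers 3 were called lower (DCN, COL6A3 and DPT) and 1 higher (COL3A1), with a median difference of -0.85 and list means from -1.46 to 0.32 in high and from -0.33 to 1.03 in low prolificacy. Of 3 neutrophil markers 1 was called higher, S100A9 at 2.46 ± 0.46 (SE; limma adjusted p = 0.0051), and the list mean lay above every low array on 4 of 5 high arrays. S100A8 and S100A12 differed by 0.16 and 0.56 and were not called. Both were dim, with means of 3.43 and 3.72 in high prolificacy, so S100A9 carries most of the shift in that mean. The part of stromal and neutrophil markers in the F3 difference was not tested.

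PROCR and the smooth muscle mean were both highest in high 1 among the high arrays. High 1, with the highest PROCR level of 8.05, also had the highest smooth muscle mean of the high group, at -0.02, while the other 4 had means from -3.46 to -2.27 and PROCR levels from 4.72 to 5.33. Low prolificacy arrays all had more smooth muscle signal than high 1, with PROCR between 5.22 and 6.32. The level in high 1 is therefore above that of arrays with higher smooth muscle means. High 1 was also highest of its group in the lymphatic endothelium, stromal fibroblast and red blood cell means (0.15, 0.32 and 0.77). The part of any of these lists in the PROCR level was not tested.

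**Figure D2:**
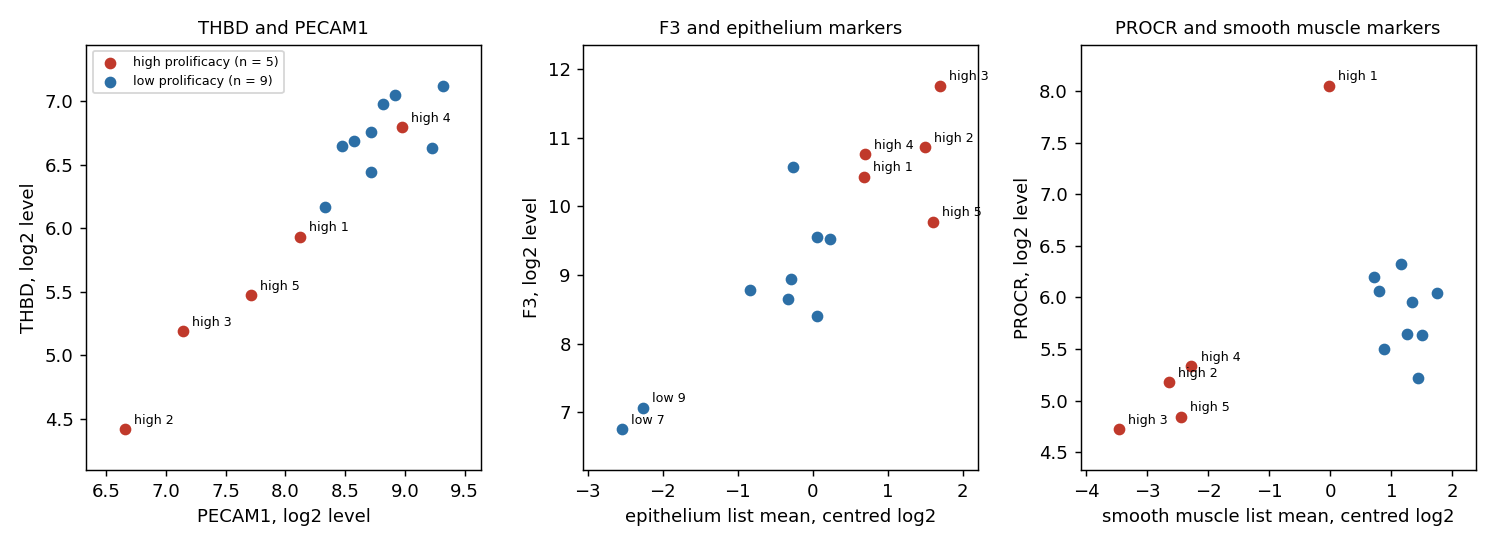
Each point is an array (red, high prolificacy, n = 5; blue, low prolificacy, n = 9); the panels set THBD against PECAM1, F3 against the epithelium list mean and PROCR against the smooth muscle list mean, in log2 units. THBD and PECAM1 lie along a common line in both groups, F3 is lowest in low 7 and low 9 where the epithelium mean is lowest, and high 1 lies apart from all other arrays in PROCR.

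The relations among these genes were tested within the 9 low prolificacy arrays, where the difference between the group means does not enter. These arrays are still part of the contrast that chose the genes, and their spread enters its SE. There were 15 pairs, tested by exact two-sided permutation over all 362880 pairings and adjusted over the 15, and 0 passed an adjusted p of 0.05, while 7 were under 0.05 unadjusted for Pearson's r and 3 for Spearman's rho. For PROCR and PECAM1 r was 0.78 and rho 0.87 (exact permutation adjusted p = 0.072 and 0.068), and r was 0.84 without the 2 arrays farthest from the PECAM1 median. For THBD and PECAM1 r was 0.67 and rho 0.67 (exact permutation adjusted p = 0.098 and 0.20), and r was 0.84 without those arrays. For F3 and PECAM1 r was 0.66 and rho 0.60 (exact permutation adjusted p = 0.098 and 0.20), and r dropped to 0.26 without them.

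Among the 15 pairs, the highest Pearson r of F3 was that with the epithelium mean, at r = 0.84 and rho = 0.63 (exact permutation adjusted p = 0.067 and 0.20). Without low 7 and low 9 this r was 0.19, so the relation rests on those arrays. With the smooth muscle mean F3 had r = -0.81 and rho = -0.75 (exact permutation adjusted p = 0.067 and 0.13), and r = -0.71 without low 5 and low 7, the arrays farthest from its median. With the mean of the blood endothelium list without PECAM1, r was 0.73 for F3, 0.71 for THBD and 0.69 for PROCR (exact permutation adjusted p = 0.098 for each), with rho of 0.60, 0.58 and 0.77 (0.20, 0.20 and 0.13). Leaving out the 2 arrays farthest from the median of that mean gave r of 0.74, 0.37 and 0.60. Between the members, r was 0.29 for F3 and THBD, 0.32 for F3 and PROCR and 0.59 for THBD and PROCR, with rho of 0.22, 0.55 and 0.52 (exact permutation adjusted p from 0.16 to 0.58). Without the 2 arrays farthest from the median of the second gene of each pair these r were 0.12, 0.53 and 0.20. The other 4 pairs, THBD and PROCR with the epithelium and smooth muscle means, had r between -0.34 and 0.22 (exact permutation adjusted p from 0.54 to 0.59) and rho between -0.43 and 0.53 (adjusted p from 0.22 to 0.56). For THBD and for PROCR, r with the epithelium mean was 0.64 and 0.76 without low 7 and low 9, and r with the smooth muscle mean was -0.62 and -0.35 without low 5 and low 7. All values of an array share its RNA and its scaling.

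Likeness was also described over all 14 arrays after each group's mean had been subtracted, across 6764 other genes and with no test. For THBD the gene with the highest Pearson r was PECAM1 itself, at 0.93, followed by ISYNA1, an enzyme of inositol synthesis, at 0.90 and the Notch ligand JAG1 at 0.86. Without high 4 the r of THBD and PECAM1 was 0.85 and PECAM1 ranked 2. Among low arrays alone PECAM1 ranked 76 for THBD and JAG1 ranked 4, at r = 0.87. Of the 17 endothelial genes 16 had a positive r with THBD, with a median of 0.65 beside -0.01 over all genes. Endothelial nitric oxide synthase NOS3 had 0.85, the cadherin CDH5 0.82 and von Willebrand factor VWF 0.77, and KDR was the exception at -0.59. Other lists came near the blood endothelium median: lymphatic endothelium at 0.61, trophoblast and fetal membranes at 0.55, and monocytes and macrophages at 0.54. Epithelium, mesothelium and neutrophils had medians of -0.08, -0.15 and -0.57. Among low arrays alone the medians were 0.57 for blood endothelium, 0.23 for lymphatic endothelium, -0.14 for trophoblast and 0.54 for monocytes.

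For F3 the genes most alike were CNPY2, a protein of the endoplasmic reticulum, at r = 0.90, the adaptor SKAP2 at 0.89 and the sorting nexin SNX5 at 0.89. None of these is a clotting factor. All 13 epithelium markers had a positive r with F3, with a median of 0.73 beside 0.02 over all genes, and all 12 smooth muscle markers had a negative one, with a median of -0.46. Low 7 and low 9, lowest in F3 and in the epithelium mean, were also lowest in CNPY2 (8.25 and 8.24), SKAP2 (6.17 and 6.12) and SNX5 (7.90 and 8.38). Among low arrays the r of F3 with the epithelium mean was 0.19 without them. The likeness values given here were not computed without them. The 17 endothelial genes had a median r of 0.27 with F3. Among low arrays alone this median was 0.66, above the 0.57 of THBD there, beside 0.82 for epithelium and -0.75 for smooth muscle. Over the 14 arrays F3 and THBD had an r of 0.04, and F3 and PROCR one of 0.01.

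For PROCR the most alike were the myosin light chain MYL4 at r = 0.89, the lipopolysaccharide-degrading enzyme AOAH at 0.88 and the matrix protein MGP at 0.87. These rest on high 1. Without it their r with PROCR were 0.46, 0.24 and 0.25, and the leading gene was SRGN, the proteoglycan core protein serglycin, at 0.88, which is named here after its value was seen. MYL4 was at 7.49 and AOAH at 7.16 in high 1, against at most 6.00 and 4.65 in the other high arrays, and at most 6.10 and 4.49 in low prolificacy. The median r of PROCR with the 12 smooth muscle markers was 0.76 with high 1 and 0.04 without it. For lymphatic endothelium these medians were 0.74 and 0.40, for blood endothelium 0.23 and 0.40, and over all genes -0.10 and -0.03. Without high 1 stromal fibroblasts had 0.44, monocytes and macrophages 0.45 and red blood cells 0.57. Among low arrays alone the median was 0.53 for blood endothelium, 0.28 for lymphatic endothelium and -0.20 for smooth muscle.

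Around the 3 genes, 50 of 76 listed genes of coagulation, fibrinolysis and their regulators were on the array, each read at its brightest probe set. Limma called 3 higher and 3 lower, or 12% beside 10.8% of all genes (5.34% higher and 5.42% lower), and the median difference was 0.08 beside 0.07 over all genes. The share called was thus near that of the array as a whole. Smooth muscle and epithelium means differed between the same groups without overlap, so their part in these calls cannot be told apart from that of prolificacy. Fits with either mean or both as covariates called 0 of the 50 (limma; 1 at an unadjusted p under 0.05 with the smooth muscle mean or both, and 3 with the epithelium mean). A covariate so tied to the groups takes up their difference, so these counts do not test that part.

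On the tissue factor side, TFPI2, an inhibitor of the tissue factor complex and of plasmin, fell. Its levels were 9.56, 6.96, 6.73, 7.56 and 5.64 in high 1 to high 5, against a lowest of 8.86, a median of 9.75 and a highest of 10.05 in low prolificacy. Only high 1 reached the low range, and low 3 was the single low array beneath it. The difference was -2.41 ± 0.45 (SE), or 5.33-fold lower (limma adjusted p = 0.0052). TFPI, the main inhibitor of the same complex, differed by -0.26 ± 0.17 (SE) and was not called (limma adjusted p = 0.45), and its mean levels of 3.57 in high and 3.82 in low prolificacy are dim. Factor V (F5), the cofactor of factor X, differed by 0.48 and the thrombin receptors F2R and F2RL2 by 0.18 and 0.54, none of them called. F7, F10 and F2 had no probe set with their symbol alone.

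The contact and intrinsic list (6 genes), the fibrin list (3 genes) and the protein C and antithrombin list (6 genes) had 0 calls in limma, with 0, 0 and 1 at an unadjusted p under 0.05. The members with the smallest p were F8, at -0.23 ± 0.14 (SE), the fibrinogen chain FGB, at 1.31 ± 1.16 (SE), and ANXA5, a phospholipid-binding anticoagulant protein, at -0.59 ± 0.26 (SE). Their limma adjusted p were 0.39, 0.60 and 0.19. The ligand and cofactor that THBD and PROCR serve, protein C (PROC) and protein S (PROS1), differed by 0.34 ± 0.52 (SE) and -0.20 ± 0.47 (SE). PROC ranged from 6.41 to 7.47 in high and from 4.82 to 8.13 in low prolificacy.

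In fibrinolysis, 1 of 7 genes rose and 1 fell. SERPINB2, an inhibitor of urokinase also known as PAI-2, had levels of 8.16, 9.90, 8.30, 8.64 and 8.73 in high 1 to high 5, against a lowest of 3.99, a median of 5.09 and a highest of 7.09 in low prolificacy. All high arrays lay above all low arrays, which held for 0.904% of all probe sets in that direction. The difference was 3.30 ± 0.59 (SE), or 9.88-fold (limma adjusted p = 0.0039). S100A10, a partner of annexin A2 that binds plasminogen at the cell surface, fell, with a mean of 11.55 on the high arrays (SD 0.16) against 12.10 on the low arrays (SD 0.27) and a difference of -0.54 ± 0.14 (SE; limma adjusted p = 0.026). Its groups did not overlap, as held for 1.74% of all probe sets in that direction, but the margin was narrow, with a highest level of 11.81 in high and a lowest of 11.82 in low prolificacy. The activators PLAT and PLAU differed by -0.0083 and -0.69 and were not called.

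Of 14 known inducers and repressors of F3 or THBD, VEGFA rose and PGR fell. VEGFA, an endothelial growth factor that induces tissue factor in cultured human endothelium, was at 9.56, 10.17, 11.34, 9.64 and 8.66 in high 1 to high 5, against a lowest of 6.65, a median of 8.48 and a highest of 9.26 in low prolificacy (difference 1.86 ± 0.51, SE; limma adjusted p = 0.037). High 3 was highest and high 5 lowest in both VEGFA and F3. A second VEGFA probe set was called with a difference of 1.97, and 2 others, at -0.15 and 0.14, were not. PGR, the progesterone receptor, had a mean of 6.21 on the high arrays (SD 0.32) against 7.04 on the low arrays (SD 0.51), so that the log2 difference was -0.84 ± 0.24 (SE), with limma adjusted p = 0.047. The transcription factors KLF2 and KLF4, which raise THBD in human endothelium, had differences of 0.00030 ± 0.12 (SE) and -0.25 ± 0.17 (SE), and EGR1, JUN and FOS, which act on the F3 promoter, by -0.054, 0.17 and 0.079, with none called. The cytokines TNF and IL1B, which raise F3 and lower THBD in cultured endothelium, differed by 0.33 and 0.11 and were not called.

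Among 9 genes of endothelial platelet control, the integrin chain ITGB3, which platelets and some endothelial and epithelial cells carry, rose to a mean of 5.85 on the high arrays (SD 0.46), against 5.18 on the low arrays (SD 0.27; difference 0.67 ± 0.19, SE; limma adjusted p = 0.041). The platelet genes ITGA2B, GP9 and PPBP differed by 0.048, 0.091 and 0.17 and were not called. When arrays were left out singly, TFPI2 and SERPINB2 were called in all 14 fits. S100A10 lost its call without high 2, high 3 or high 5, and VEGFA without high 2, high 3, high 4, low 6, low 7 or low 9. PGR lost it in 9 and ITGB3 in 10 of the 14 fits. The count of 6 was 2 without high 2 or high 3, and 3 without high 4, high 5, low 6 or low 7.

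**Figure D3:**
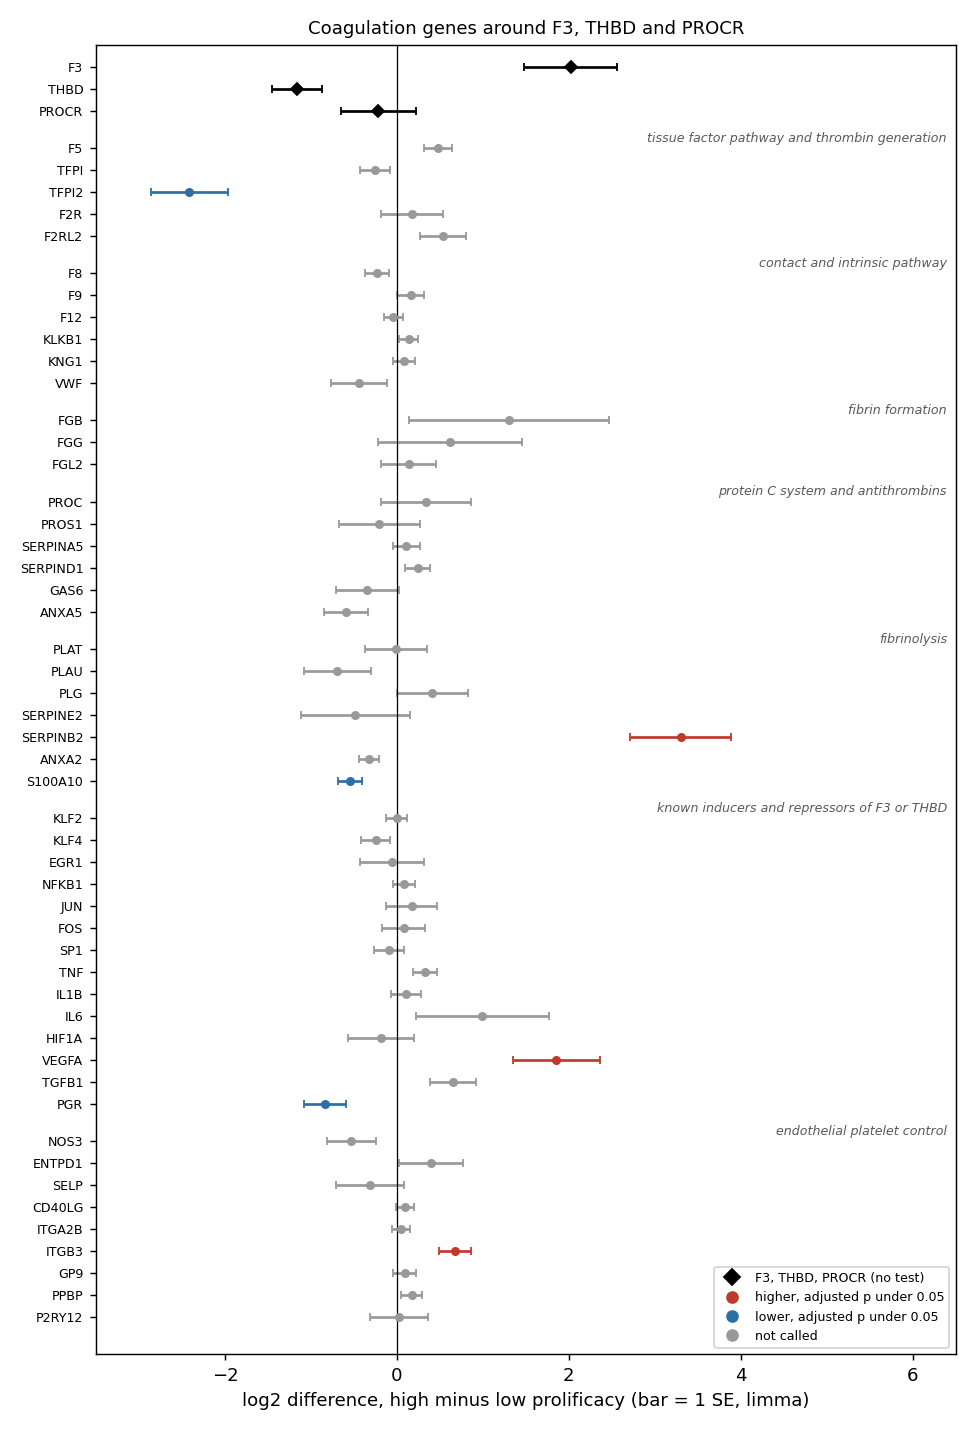
Log2 difference, high minus low prolificacy, of the 3 genes (black diamonds, no test) and of the 50 listed genes on the array by role, with bars of 1 SE from limma; red and blue points passed an adjusted p of 0.05 as higher and lower. SERPINB2 at 3.30 and TFPI2 at -2.41 lie farthest from 0, and most of the others lie within 1 of it.

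The differences of the 3 genes moved in different ways when a tissue measure entered the fit. The smooth muscle and epithelium means did not overlap between the groups, so a fit with either cannot separate it from prolificacy. F3 was at 2.35 ± 0.76 (SE) with PECAM1 and 2.24 ± 0.53 (SE) with the blood endothelium mean as covariate, and at 0.026 ± 1.22 (SE) with the smooth muscle mean. THBD was at -0.94 ± 0.20 (SE) with the blood endothelium mean, -0.99 ± 0.45 (SE) with the epithelium mean and -0.52 ± 0.71 (SE) with the smooth muscle mean. PROCR was at 2.71 ± 0.65 (SE) with the smooth muscle mean, against -0.22 ± 0.43 (SE) without it, in a fit in which high 1 joins the highest PROCR level to the highest smooth muscle mean of its group.

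**Figure D4:**
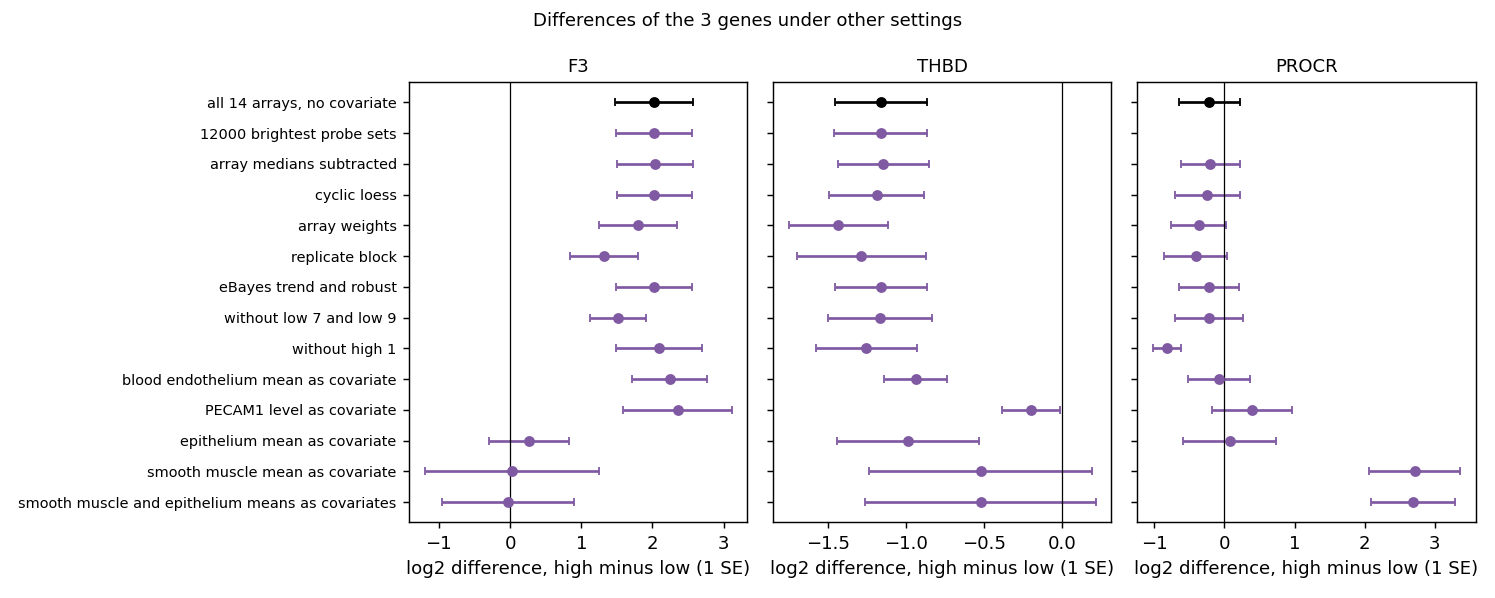
Log2 difference, high minus low prolificacy, of F3, THBD and PROCR over all 14 arrays (black) and under other settings (violet), with bars of 1 SE. F3 nears 0 with the epithelium or smooth muscle mean as covariate, THBD nears 0 with PECAM1 as covariate at -0.20, and PROCR turns positive at 2.71 with the smooth muscle mean.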

How the data were processed

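The authors deposited log2 values made with RMA, as the submitters' processing notes name it, with no settings or version in the sources used here. RMA equalises probe intensities between arrays, so a shift shared by most transcripts is removed. Array medians lay between 5.72 and 5.84. Precision is limited by the number of arrays. Of 24123 probe sets, 124 Affymetrix controls were left out. Symbols are those of the platform's annotation and may be outdated: 10069 probe sets had 1 symbol, 198 several and 13732 none, and all 3 member symbols were unchanged in RefSeq's gene table for pig. No build applies to the array, so no coordinates are given, and no sequence was used here.

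High minus low prolificacy was fitted with limma 3.58.1 in R 4.3.3 (lmFit, eBayes, two-sided, no covariate), with Benjamini-Hochberg adjustment over 23999 probe sets and a threshold of 0.05. A gene in a list is its brightest probe set with 1 symbol. Correlations used exact permutation in Python 3.11.15. Both procedures were tested on simulated data. Named genes were all probe sets of the members and PECAM1, every called gene of each pathway list (or the gene with the smallest p where none was called), and the 3 genes most like each member. Other genes named with values were chosen after their values were seen. The members and lists were chosen with earlier results of these data known. Alternatives were a brightness filter of 12000 probe sets, 2 other scalings, array weights, the replicate number as a block, covariates, other eBayes settings and leaving out each array. After seeing the data, the epithelium mean alone, the smooth muscle mean alone and leaving out low 7 with low 9 were added.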

Additional observations from a re-analysis of the deposited data

Results flagged for a closer look

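In a group of 5 or 9 arrays, a value was singled out when its gap to the nearest other array, divided by the range of the group, passed Dixon's critical value. Of 66 group and measure combinations examined, 4 met this, where chance gives about 1 in 20. PROCR in high 1, at 8.05, had a gap of 0.82 of the range of the high group. MYL4 in high 1, at 7.49, and AOAH in high 1, at 7.16, had gaps of 0.79 and 0.76 of it, and both genes were named for their likeness to PROCR, which that array sets. TFPI2 in low 3, at 8.86, had a gap of 0.64 of the range of the low group and was the lowest of the 9.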

How the results depend on the processing

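Differences of the 3 genes kept their direction under the 12000 brightest probe sets (PROCR is not among them), both other scalings, array weights, other eBayes settings and the blood endothelium mean as covariate. Over the 14 fits that each left out 1 array, F3 ran from 1.76 to 2.26, THBD from -1.47 to -0.87 and PROCR from -0.82 to 0.0083, the last without high 3. Both smooth muscle and epithelium means as covariates gave -0.029 for F3, -0.52 for THBD, 2.69 for PROCR and -0.52 and -0.46 for the PECAM1 probe sets. The smooth muscle mean alone gave 0.026, -0.52, 2.71, -0.51 and -0.46 for them, and the epithelium mean alone gave 0.27 for F3. With PECAM1 as covariate THBD was at -0.20, the dimmer PECAM1 probe set at -0.15 and PROCR, which is not called, at 0.40. TFPI2 turned to 0.40 with the smooth muscle mean alone or with both means, S100A10 to 0.072 and 0.081 and ITGB3 to -0.071 and -0.070. The cause of these changes was not tested. Smooth muscle and epithelium means do not overlap between the groups, so fits with them cannot tell tissue make-up from prolificacy.

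Limma called 1885 probe sets (5073 at an unadjusted p under 0.05). It called 3060 with array weights, 495 with PECAM1, 1065 without low 7 and low 9, 2 with the epithelium mean (1212 unadjusted) and 0 with the smooth muscle mean or both means (302 and 328 unadjusted). Leaving out 1 array gave 944 to 2650, with 944 without high 3 and 1002 without high 2. Of the 50 pathway genes, 6 were called, 1 with PECAM1, 2 without low 7 and low 9, 0 with either or both means, and 2 to 6 when 1 array was left out. With every probe set in place of the brightest, 7 of 76 pathway probe sets were called, both called VEGFA probe sets among them.

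Replicate numbers occur in both groups for 1 to 5 only. Deviations of same-numbered arrays correlated above 0.1 in 3 of 5 numbers (from -0.25 to 0.42). These 5 values were not set against those of differently numbered arrays, so they cannot decide whether the numbers pair the sows. With the replicate number as a block, limma called 35 probe sets and 0 pathway genes (3197 and 9 unadjusted), and F3, THBD and PROCR differed by 1.32, -1.29 and -0.41. In the low arrays 0 of 15 correlations passed with array medians subtracted or with any 1 low array left out. Partial r given both means was 0.84 for PROCR with PECAM1, 0.63 for THBD with PECAM1 and 0.079 for F3 with THBD. No detection calls were used, so a dim level may be background.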
